A study of Mus musculus with 6 samples.

Results

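The miRNAs described here are known from microglia, blood leukocytes and inflammatory signalling: miR-142a, miR-223, miR-150, miR-155, miR-146a, miR-146b, miR-342 and miR-21a. They were chosen by name, as 10 mature miRNAs, and each name was looked up in the table of small RNA sequences without the suffix that marks a variant end. Of the 10 names, 8 had an entry, each with 1 sequence, out of 1013 distinct sequences in all; miR-142a-3p and miR-21a-3p were not analysed here. The tissue was the prefrontal cortex, taken from male mice of the inbred strain C57BL/6 that were 5 weeks old at the outset and have a labelled age of 30 weeks, and its small RNA had been sequenced. The PS-NP group had received nano-polystyrene (plastic particles of nanometre size) by daily gavage into the stomach at 50 mg per kg over 6 months, and the control group had received water; each group had 3 libraries. The study set out to find miRNAs that could mark brain injury by these particles, and the labels do not say whether each library came from its own animal.

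MicroRNAs guide the silencing complex to messenger RNAs mainly through their seed, bases 2 to 8 from the 5′ end. miR-142 and miR-223 are made in blood-forming lineages, miR-142 across leukocytes including microglia and miR-223 chiefly in neutrophils and other myeloid cells. miR-150 is a miRNA of mature lymphocytes that represses the transcription factor Myb, while miR-155 is induced by Toll-like receptor signals in macrophages and microglia and represses brakes on cytokine signalling. miR-146a and miR-146b are induced through NF-κB and repress adaptor proteins of that same pathway, which makes them feedback inhibitors. miR-21 is raised in many injured or inflamed tissues and represses Pdcd4, and miR-342 is known from both leukocytes and brain.

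The 8 sequences as counted in the cortex are shown with the seed in capitals and in DNA letters, because the seed decides which targets a sequence can pair with.
mmu-miR-142a-5p: cCCATAAAgtagaaagcact
mmu-miR-223-3p: tGTCAGTTtgtcaaataccccat
mmu-miR-155-5p: tTAATGCTaattgtgataggggt
mmu-miR-150-5p: tCTCCCAAcccttgtaccagtg
mmu-miR-146a-5p: tGAGAACTgaattccatgggtt
mmu-miR-146b-5p: tGAGAACTgaattccataggctgt
mmu-miR-342-3p: tCTCACACagaaatcgcacccgtc
mmu-miR-21a-5p: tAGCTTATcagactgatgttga
Only miR-146a-5p and miR-146b-5p shared a seed among the 8. Their first 17 letters were identical, and 2 of the first 22 differed, so a read that is cut short could be counted under either name.

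Most of the counted sequences began where the RefSeq mature miRNA (GRCm38.p6) begins, and 1 did not. RefSeq held 7 of the 8 mature sequences. The miR-142a-5p that was counted began 2 bases earlier and ended 3 bases earlier than the RefSeq form, and all of its 20 letters lie in the Mir142 hairpin. Its seed therefore differs from that of the RefSeq form, which is shown for comparison.
RefSeq miR-142a-5p: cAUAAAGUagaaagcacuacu
Of RefSeq's mouse miRNAs, miR-142b, from the hairpin on the opposite DNA strand of the same locus, has the seed of the counted form. The other 6 kept the RefSeq seed. miR-155-5p, miR-146a-5p and miR-21a-5p were identical to RefSeq, miR-146b-5p carried 2 further bases and miR-342-3p 1 further base at the 3′ end, all found in the hairpin. miR-223-3p carried 1 further base at its 3′ end that is not in the hairpin at that position.

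By the GENCODE M21 annotation (GRCm38), the genes lie on 6 chromosomes. No source used here names the build of the table, so positions come from RefSeq and GENCODE. On chromosome 11 the plus-strand Mir142 hairpin (87756864 to 87756927) lies in an intron of the noncoding Mir142hg, the minus-strand Mir21a hairpin (86584067 to 86584158) in an exon of Vmp1 annotated as UTR, and the minus-strand Mir146 hairpin (43374397 to 43374461) in no other annotated gene. The remaining hairpins are on plus strands. Mir155 (chromosome 16, 84714140 to 84714204) lies in an exon of the noncoding Mir155hg, and Mir223 (chromosome X, 96242817 to 96242926) in an exon of the noncoding F630028O10Rik. Mir146b (chromosome 19, 46342762 to 46342870) and Mir342 (chromosome 12, 108658620 to 108658718) lie in introns of the protein-coding genes Mfsd13a and Evl, and Mir150 (chromosome 7, 45121757 to 45121821) in no other annotated gene.

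Across the whole table, libraries held 6170649 to 9905745 reads, and 639 sequences had enough reads to be tested, all 8 members among them. CPM (counts per 1e+06 reads) were computed with library sizes scaled by TMM. Between libraries of 1 group Pearson's r of log2 CPM ran from 0.971 to 0.984, and between groups from 0.967 to 0.984, over sequences that are no replicates of each other. The labelled tissue carried its neuronal miRNAs: miR-124-3p, miR-128-3p and miR-9-5p summed to 175500 to 186300 CPM in control libraries and 149300 to 205600 in PS-NP libraries. In bulk tissue, a change in the number of cells of a type and a change in RNA per cell cannot be told apart.

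The members together took 0.723% to 0.943% of all reads in a library, and their mean levels spanned more than 3 orders of magnitude. miR-342-3p had the highest mean over the 6 libraries at 5283 CPM (3758 to 6843), followed by miR-150-5p at 1783 CPM (1232 to 2241). Next came miR-146a-5p at 542.7 CPM (368.4 to 659.9), miR-146b-5p at 444.1 CPM (294.2 to 531.4) and miR-21a-5p at 233.9 CPM (168.6 to 327.5). A 20.6-fold drop in mean CPM separated these from the rare members: miR-142a-5p at 11.4 CPM (7.05 to 19.6), miR-223-3p at 10.6 CPM (6.93 to 16.7) and miR-155-5p at 4.17 CPM (2.54 to 8.01). The ranges of neighbours overlapped between miR-146a-5p and miR-146b-5p, between miR-146b-5p and miR-21a-5p, between miR-142a-5p and miR-223-3p, and between miR-223-3p and miR-155-5p. Even so, miR-146b-5p exceeded miR-21a-5p within all 6 libraries and miR-223-3p exceeded miR-155-5p within all 6. miR-146a-5p exceeded miR-146b-5p in 5 of 6 libraries and miR-142a-5p exceeded miR-223-3p in 4 of 6. Each read stands for 1 whole miRNA of 20 to 24 bases, so no length correction applies, but miRNAs differ in how well they are ligated into a library.

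**Figure D1:**
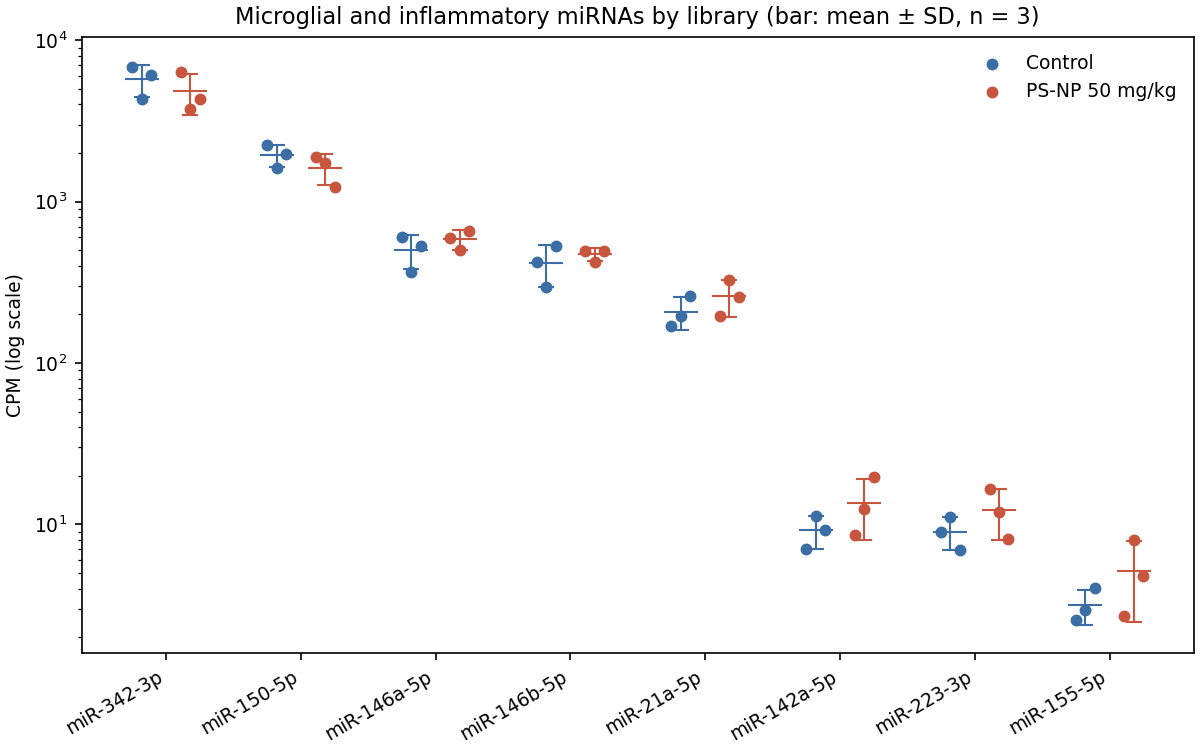
CPM of each of the 8 miRNAs (log axis) in the 3 control and the 3 PS-NP libraries; points are libraries, long bars means and capped bars SD. The points of the groups overlap for every miRNA, and miR-142a-5p, miR-223-3p and miR-155-5p lie below 20 CPM in all libraries.

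The comparison of PS-NP with water asked whether these miRNAs differ in the cortex after exposure. Of the 8 members, 6 had a higher mean and 2 a lower mean with PS-NP, led by miR-155-5p at 1.65 times and miR-142a-5p at 1.48 times the control level, and no member passed the test. The count past an adjusted p of 0.05 was 0 of 8, against 0% (0 of 639) over all sequences (edgeR quasi-likelihood test, Benjamini-Hochberg adjustment). At an unadjusted p under 0.05 there were 0 of 8 members, against 2.35% of all sequences, and DESeq2 and limma-voom also gave 0 of 8 at both thresholds. All 8 members had an adjusted p of 0.906, the smallest in the whole fit. The groups overlapped for all 8 members, where 9.55% of all sequences had groups that did not overlap. The median log2 difference of the members was 0.27, beside −0.017 over all 639 sequences, of which 47.9% had a positive difference.

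Among the miRNAs of blood-forming lineages, the rare ones had the larger estimates and the least reads. miR-142a-5p, the leukocyte and microglial miRNA, measured 7.05, 11.3 and 9.19 CPM in the control libraries and 8.55, 12.5 and 19.6 CPM in the PS-NP libraries. PS-NP library 3 was above every other library, PS-NP library 1 lay below controls 2 and 3, and control library 1 was the lowest. The log2 difference was 0.57 (95% interval −0.24 to 1.38), a fold of 1.48, from 57 to 216 reads per library. Leaving out PS-NP library 3 gave 0.18, and leaving out PS-NP library 1 gave 0.81, where its unadjusted p was 0.0372 (edgeR). Without PS-NP library 1, 38 of all 630 sequences had an unadjusted p under 0.05, against 15 of 639 with all 6 libraries.

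miR-155-5p, the miRNA induced in activated macrophages and microglia, was the rarest member, with 18 to 72 reads per library. It measured 2.54, 2.93 and 4.03 CPM in control libraries and 2.70, 8.01 and 4.80 in PS-NP libraries. PS-NP libraries 2 and 3 were above all controls, while PS-NP library 1 lay among the controls. The log2 difference was 0.72 (95% interval −0.33 to 1.77), the largest estimate of the 8 and a fold of 1.65. Without PS-NP library 2 it was 0.25, and without PS-NP library 1 it was 1.02, with an unadjusted p of 0.0394 (edgeR). That is the same fit in which 38 of all 630 sequences had an unadjusted p under 0.05. The control libraries held 20 to 25 reads, where counting alone gives a coefficient of variation of 20.0% to 22.4%, and 24.4% was measured between them. The PS-NP libraries held 18 to 72 reads, with 11.8% to 23.6% from counting alone and 51.8% between libraries.

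miR-223-3p, the neutrophil and myeloid miRNA, measured 9.02, 11.1 and 6.93 CPM in control libraries and 16.7, 11.9 and 8.15 in PS-NP libraries. Here PS-NP library 1 was the highest of the 6, while PS-NP library 3, the highest for miR-142a-5p, lay below controls 1 and 2. Its log2 difference was 0.43 (95% interval −0.33 to 1.20), 0.15 when PS-NP library 1 was left out and 0.64 when PS-NP library 3 was, with 43 to 111 reads per library.

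miR-150-5p, known from lymphocytes, averaged 1783 CPM, far above the other leukocyte miRNAs at 4.17 to 11.4 CPM. Its mean was lower with PS-NP, and which cells of the cortex it came from was not tested. It measured 2241, 1616 and 1978 CPM in control libraries and 1888, 1746 and 1232 in PS-NP libraries. PS-NP library 3 was the lowest of the 6, and the other PS-NP libraries lay between control 2 and control 3. Its log2 difference was −0.26 (95% interval −0.74 to 0.21), a fold of 0.834, and −0.12 without PS-NP library 3.

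A further miR-150 form was listed under the name of a cow miRNA, bta-miR-150, and differs from the mouse entry by 1 further base at the 3′ end. Both forms are shown because they share the seed.
bta-miR-150: tCTCCCAAcccttgtaccagtgt
It held 12.3%, 9.84% and 13.5% of the reads of the miR-150-5p forms in controls and 12.0%, 11.6% and 12.0% with PS-NP. The remaining form, ssc-miR-150_L+2, held 0.206% to 0.543%. The cow-named form measured 267.6 ± 78.7 CPM in control libraries and 219.5 ± 46.3 in PS-NP libraries (SD, n = 3 each). Its log2 difference was −0.29 (SE 0.27), beside −0.26 (SE 0.21) for the mouse entry. The groups overlapped in its share of reads as well as in its level.

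Summed over the miRNAs taken as restricted to leukocytes (miR-142a-5p, miR-223-3p, miR-150-5p and miR-155-5p), the level measured 2260, 1641 and 1998 CPM in control libraries and 1916, 1778 and 1265 in PS-NP libraries. miR-150-5p made up 97.4% to 99.2% of that sum, which on the log2 scale was lower by a mean of −0.26 with PS-NP. Without miR-150-5p the sum turned the other way. miR-142a-5p, miR-223-3p and miR-155-5p together measured 18.6, 25.3 and 20.2 CPM in control libraries and 27.9, 32.4 and 32.5 in PS-NP libraries, a mean log2 difference of 0.54. The PS-NP libraries were all above the controls for this sum of 3, although the groups overlapped for each of its members. Among all single sequences, 9.55% had groups that did not overlap. The 3 contain 34.8% to 40% G and C, and their sum was not recomputed with the GC trend removed. An exact permutation test of the sum was run, which cannot go below p = 0.1 with 3 libraries against 3. Its p-values are not given, because the members were chosen with earlier results known, and both sums are descriptions.

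Markers of red blood cells and of vessel lining were set beside that sum. Both endothelial markers tested, miR-126a-3p and miR-126a-5p, had positive log2 differences (0.47 and 0.39, neither past the adjusted test). Their sum ran from 1486 to 1967 CPM in control libraries and from 1990 to 2534 in PS-NP libraries, without overlap. Most of it was miR-126a-3p, with means of 1540 CPM in control and 2138 in PS-NP libraries, beside 113.5 and 148.3 for miR-126a-5p. The 2 miRNAs contain 42.9% and 36.4% G and C, and no values with the GC trend removed are given here. Of the 2, only miR-126a-3p had groups that did not overlap, as did 9.55% of all sequences. Of the 5 red blood cell markers, 4 were listed and 2 had enough reads, miR-451a and miR-486b-5p, 1 with a positive and 1 with a negative difference. The 4 listed summed to 777.9 to 1092 CPM in control libraries and 622 to 1075 in PS-NP libraries. miR-144-3p and miR-144-5p were each listed at 0 in 5 of 6 libraries. Both choroid plexus markers tested, miR-204-5p and miR-211-5p, also had positive differences (0.35 and 0.11), with overlapping groups. The 3 choroid plexus markers listed varied widely, summing to 1771, 5619 and 3260 CPM in control libraries and 2056, 7218 and 4278 in PS-NP libraries. Of the 3 oligodendrocyte markers, 1 was positive and 2 were negative. The part of blood or vessel content in the miRNA levels was not tested.

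The feedback pair of the NF-κB pathway had slightly higher means with PS-NP and overlapped widely. miR-146a-5p measured 604.2, 368.4 and 527.2 CPM in control libraries and 597, 499.5 and 659.9 in PS-NP libraries. Control library 2 was the lowest and PS-NP library 3 the highest, with the others close together. The log2 difference was 0.23 (95% interval −0.27 to 0.72), and 0.047 without control library 2.

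miR-146b-5p measured 423.2, 294.2 and 531.4 CPM in control libraries and 496.8, 425.1 and 493.9 in PS-NP libraries, so that control library 3 was the highest and control library 2 again the lowest. Its log2 difference was 0.18 (95% interval −0.33 to 0.70) and turned to −0.020 without control library 2. The coefficient of variation was 28.5% between controls and 8.60% between PS-NP libraries. The ratio within a library does not depend on the scaling between libraries. The log2 ratio of miR-146a-5p to miR-146b-5p was 0.51, 0.32 and −0.011 in controls and 0.27, 0.23 and 0.42 with PS-NP. Its mean differed by 0.030 between the groups (two-sided exact permutation test, p = 1; 3 against 3 libraries cannot go below 0.1), and the difference turned to −0.11 without control library 3 and to −0.026 without PS-NP library 3.

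miR-21a-5p, the miRNA raised in injured tissue, measured 168.6, 195.8 and 261.1 CPM in control libraries and 195.5, 327.5 and 255.2 in PS-NP libraries. PS-NP library 2 was the highest, control library 1 the lowest, and control library 3 lay above PS-NP libraries 1 and 3. This gave a log2 difference of 0.32 (95% interval −0.24 to 0.88), a fold of 1.25, which became 0.10 without PS-NP library 2 and 0.51 without control library 3.

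miR-342-3p, the most abundant of the 8, measured 6843, 4305 and 6098 CPM in control libraries and 6353, 3758 and 4342 in PS-NP libraries. Control library 2 lay with the lower PS-NP libraries, and PS-NP library 1 with the higher controls. This gave a log2 difference of −0.25 (95% interval −0.81 to 0.30), −0.51 without PS-NP library 1 and −0.11 without control library 1. Counting adds little here: at 29440 reads or more per library the counting coefficient of variation is at most 0.583%, while it was 22.7% between controls and 28.2% between PS-NP libraries.

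**Figure D2:**
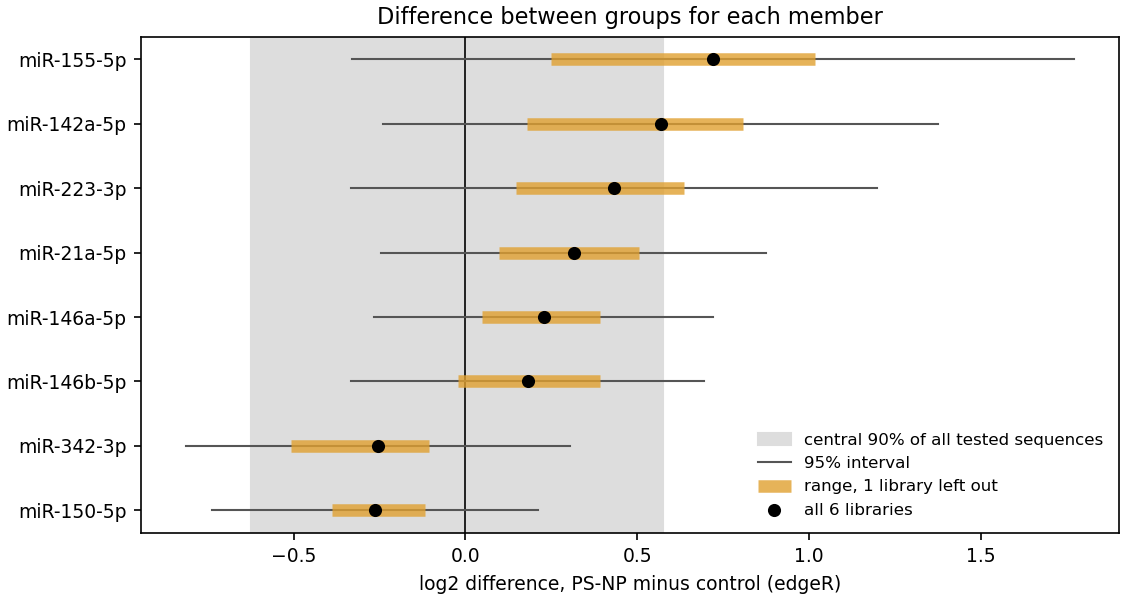
Log2 difference between PS-NP and control for each of the 8 miRNAs (points), with the 95% interval of the edgeR fit (thin lines), the range with 1 library left out (thick bars) and the central 90% of all 639 sequences, −0.62 to 0.58 (grey). All 8 intervals cover 0, and only miR-155-5p, at 0.72, lies outside the grey band.

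The estimates followed the base composition of the sequences. The 6 members with a positive difference contain 34.8% to 41.7% G and C, and the pair with a negative difference, miR-150-5p and miR-342-3p, contain 54.5% and 54.2%. Over all 639 sequences sequences richer in G and C had the lower log2 differences (Spearman's rho −0.467, over sequences from the same 6 libraries). With the GC trend of each library removed, the directions of the 8 members stayed as they were and the sizes fell: 0.51 for miR-155-5p, 0.41 for miR-142a-5p, 0.30 for miR-223-3p, 0.14 for miR-21a-5p, 0.11 for miR-146a-5p, 0.080 for miR-146b-5p and −0.18 and −0.19 for miR-150-5p and miR-342-3p. The median of the members was then 0.12, beside 0.27 without the correction.

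**Figure D3:**
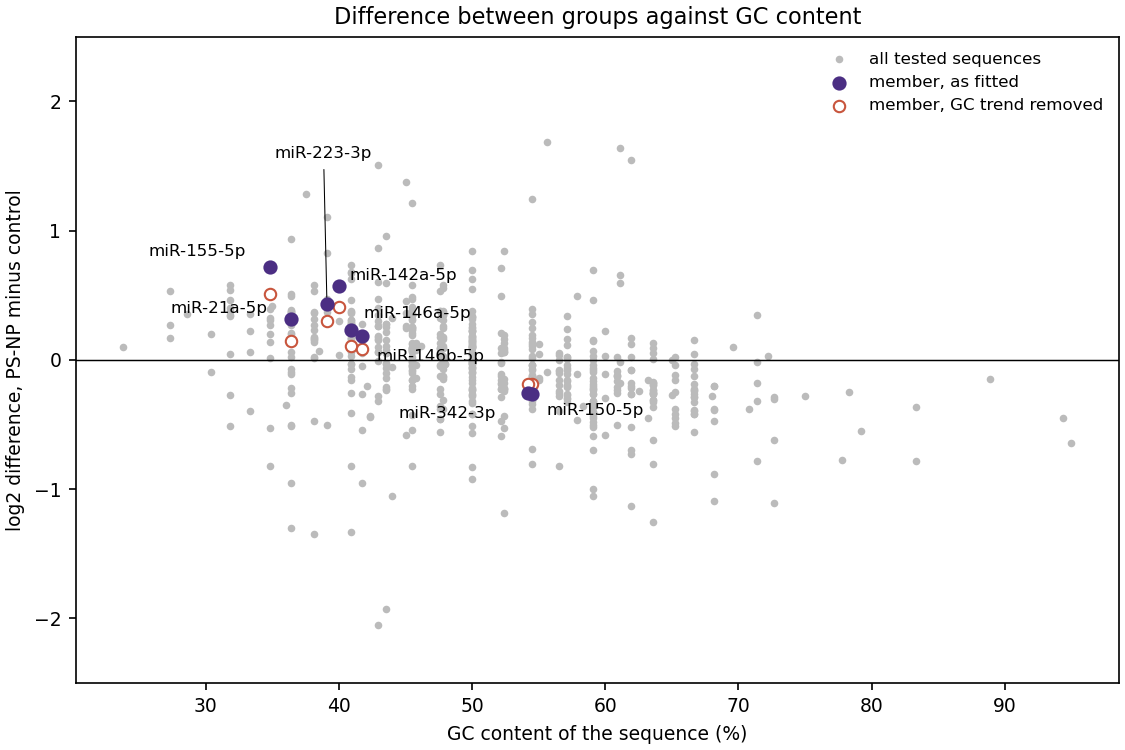
Log2 difference between PS-NP and control against the GC content of each of the 639 sequences (grey) and of the 8 members as fitted (filled) and with the GC trend of each library removed (open). Members at 34.8% to 41.7% GC lie above 0 and the pair near 54% lies below it, and the open circles lie nearer to 0 for all 8.

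The members did not vary together from library to library. Over the 28 pairs of members, Pearson's r of log2 CPM across the 6 libraries was positive in 15 and negative in 13, with a median of 0.0062. It exceeded 0.9 in size for 2 pairs. miR-155-5p and miR-21a-5p were high and low in the same libraries (r = 0.963, Spearman's rho 0.943; r = 0.952 after group means were removed). miR-142a-5p and miR-150-5p were opposed (r = −0.967, rho −0.886; −0.956 after group means were removed). The seed-sharing miR-146a-5p and miR-146b-5p had r = 0.824 but rho 0.314, both being lowest in control library 2. miR-142a-5p and miR-223-3p, both from blood-forming cells, had r = −0.195. These values describe 6 libraries scaled to common totals, and the pairs were picked for their size among 28. The correlations were not recomputed with the GC trend removed, and miR-155-5p rests on 18 to 72 reads per library.

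**Figure D4:**
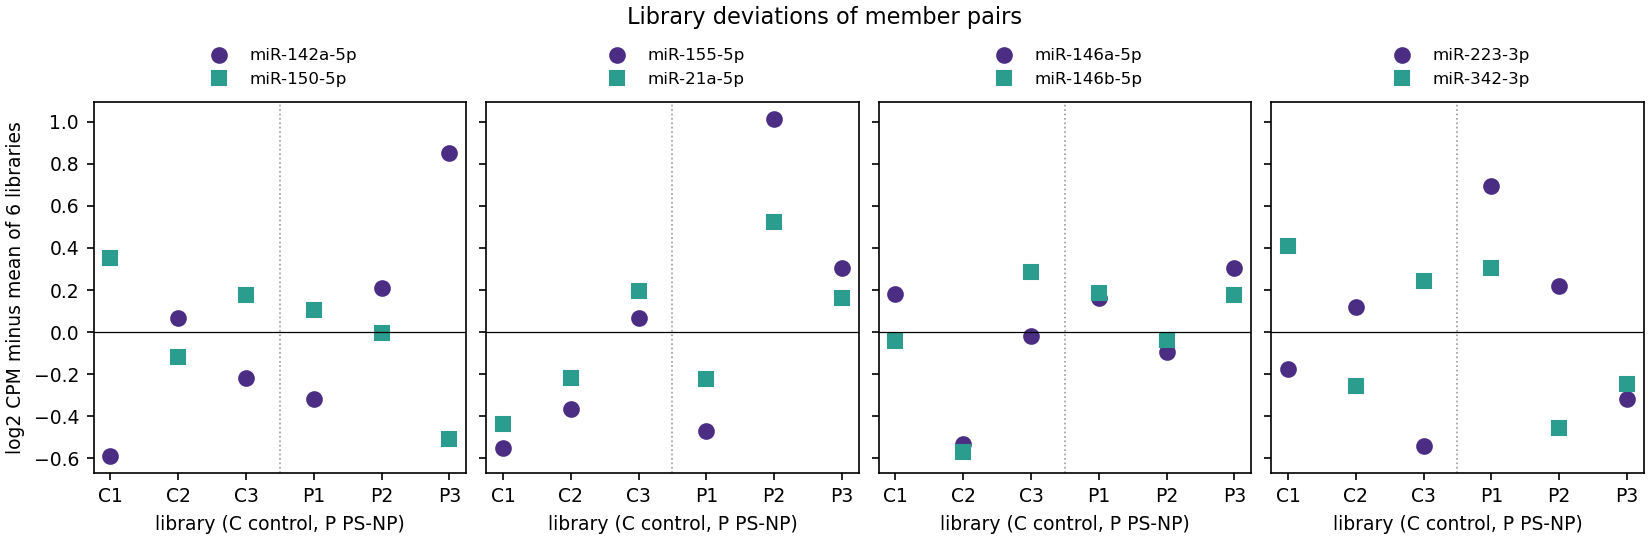
Log2 CPM of each miRNA minus its mean over the 6 libraries, for 4 pairs of members in the control (C1 to C3) and PS-NP (P1 to P3) libraries. miR-155-5p and miR-21a-5p (r = 0.963) move together, and miR-142a-5p and miR-150-5p (r = −0.967) mirror each other.

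Outside the members, the miRNAs most like them across the 6 libraries came from 386 mouse sequences with a mean of at least 10 CPM. Nearest to the mean of the standardized leukocyte miRNAs were miR-107-3p (r = 0.953, rho 0.943), miR-17-5p (r = 0.951, rho 0.829) and miR-532-5p (r = 0.938, rho 0.943). That mean holds miR-142a-5p and miR-150-5p, which were opposed (r = −0.967), so likeness to the mean need not hold for each miRNA in it. Nearest to miR-146a-5p were miR-99a-5p (r = 0.944, rho 0.829), miR-100-5p (r = 0.938, rho 0.714) and miR-145a-3p (r = 0.928, rho 0.886). Nearest to miR-21a-5p were miR-22-5p (r = 0.98, rho 0.943), miR-592-5p (r = 0.966, rho 0.886) and miR-140-5p (r = 0.956, rho 1). In each case these were the 3 highest of 386 values, over only 6 libraries.

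Opposite strands of the same hairpins were examined where both were listed. Of the 9 names on the list of opposite arms and relatives, 3 were listed and tested, and 0 passed in either direction, with log2 differences from −0.20 to 0.093. miR-150-3p measured 6.88 ± 1.69 CPM in control libraries and 6.03 ± 1.12 in PS-NP libraries, and miR-342-5p 32.3 ± 5.20 and 34.5 ± 4.48 CPM (SD, n = 3 each). The remaining one, miR-146b-3p, measured 8.92 ± 3.09 and 8.36 ± 1.07 CPM. The dominant arm exceeded the other by a mean log2 ratio of 8.13 in controls and 8.04 with PS-NP for miR-150 (5p over 3p), 7.45 and 7.09 for miR-342 (3p over 5p) and 5.54 and 5.80 for miR-146b (5p over 3p). For miR-342 the ratio per library was 7.48, 7.16 and 7.72 in controls and 7.33, 6.79 and 7.15 with PS-NP, with overlap. The differences between groups were −0.090, −0.36 and 0.26, with two-sided exact permutation p = 0.5, 0.2 and 0.4 (n = 3 each), and all 3 came to 0.667 after Benjamini-Hochberg adjustment over the 4 ratios tested here. These 3 ratios were not planned, unlike that of miR-146a to miR-146b, and the members were chosen with earlier results known. All 3 differences kept their sign as single libraries were left out, but each moved by more than 1.5 times. The miR-146b difference was 0.055 without control library 1 and 0.43 without control library 3. For miR-342 it was −0.21 without PS-NP library 2 and −0.23 without control library 3. For miR-150 it was −0.024 without control library 3, −0.034 without PS-NP library 3, −0.17 without control library 1 and −0.16 without PS-NP library 2.

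Other miRNAs described in macrophages, microglia or lymphocytes gave 17 tested sequences from 20 names, of which 0 passed in either direction. Their median log2 difference was 0.031, with 9 positive and 8 negative. miR-222-3p had the lowest unadjusted p of the list, 0.159 (edgeR), at 8096 ± 600.7 CPM in control libraries and 6921 ± 444.9 in PS-NP libraries, and it was the 1 of the 17 whose groups did not overlap (9.55% of all sequences). miR-17-5p, a member of a cluster linked to proliferation, measured 51.7 ± 5.79 and 65.5 ± 18.4 CPM. miR-511-5p and miR-511-3p, from the macrophage mannose receptor gene Mrc1, were listed at 0 in 4 and 5 of the 6 libraries and were not tested.

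Other miRNAs tied to NF-κB, Toll-like receptor signalling or stress gave 11 tested sequences from 13 names, of which 0 passed, with a median log2 difference of 0.012 (6 positive and 5 negative). The sequence of miR-199a-5p, which the table also lists as a variant of miR-199b-5p, had a log2 difference of 0.49 (95% interval 0.016 to 0.97), with an unadjusted p of 0.0441 and an adjusted p of 0.906 (edgeR). miR-203-3p measured 49.9 ± 7.97 CPM in control libraries and 60.0 ± 4.18 in PS-NP libraries, a log2 difference of 0.27 (95% interval −0.18 to 0.72).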

How the data were processed

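TruSeq Small RNA libraries of prefrontal cortex were sequenced on a HiSeq instrument, and ACGT101-miR removed adapter dimers, junk, common RNA families and repeats, per the labels' protocols. No source used here gives the build or mapping settings. Per the file headers, the deposited table holds raw values, which are estimated counts (86.8% whole as listed, 95% after summing, within 1e-06), and norm values, a signal the authors made with 1 factor per library. Rows of 1 sequence were summed and rounded; 3 lines were not analysed here. Sequences reaching 10 reads in 3 or more of the 6 libraries were scaled by TMM and tested with edgeR 4.0.16 (quasi-likelihood, Benjamini-Hochberg at 0.05); the script was tested on simulated data. Log ratios of arms used a pseudocount of 1. Intervals are 95% intervals of the fit, and p-values measure only the spread between libraries, which may be technical. Alternatives were DESeq2 1.42.0, limma 3.58.1 (voom), other scalings and filters, GC correction, a replicate block and leaving out each library. All members are named; of each related list, the 2 of lowest p; and the 3 most alike miRNAs per pattern. The cell type markers were set by name in the plan, and any other names were chosen after their values were seen. The members and lists were chosen with earlier results of these data known.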

Additional observations from a re-analysis of the deposited data

How the results depend on the processing

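Under all 16 alternatives run, 0 sequences and 0 members passed an adjusted p of 0.05. Of 125 recomputed log2 differences of the 8 members, 124 kept their direction; miR-146b-5p turned to −0.020 without control library 2 and reached 0.39 without control library 3. Unadjusted p under 0.05 appeared for 2 members, miR-142a-5p and miR-155-5p, without PS-NP library 1. That setting put 38 of all 630 sequences under 0.05, against 15 of 639 with all 6 libraries. The members' median log2 difference ran from 0.16 to 0.33 as single libraries were left out, 0.12 with the GC trend removed and 0.17 at a mean of at least 100 reads, where 5 members were tested. The leukocyte sum turned to 0.54 without miR-150-5p, its most abundant member, and ran from −0.39 to −0.079 over left-out libraries. The miR-146a to miR-146b difference ran from −0.11 to 0.15 and reversed to −0.026 without PS-NP library 3. The deviations of same-numbered libraries had r = 0.309, 0.152 and −0.171 across sequences for numbers 1, 2 and 3. Pairs of a control and a PS-NP library with unlike numbers ran from −0.438 to 0.395. These values cannot show whether same-numbered libraries were handled together. With the replicate block the members' median was 0.28, the leukocyte sum −0.26 and the ratio 0.030. That block gave 0 calls and 32 sequences against 15 at an unadjusted p under 0.05. The planned arm ratios of miR-142a and miR-21a were not run, because the opposite arm was not analysed here. A member's 95% interval reached a median of 0.56 log2 units to either side (0.64 over all sequences), and miR-155-5p rests on 18 to 72 reads per library.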
